A study of Mus musculus with 2 samples.

Results

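The respiratory chain and ATP synthase genes of the nucleus were followed through 2 sorted cell populations of mouse skin. Members were all symbols of the deposited expression table that start with Nduf plus a, b, c, s or v and a digit, with Uqcr, with Cox plus a digit from 4 to 8, or with Atp5. This gave 81 of the 23233 listed genes, of which 37 belong by name to complex I, 8 to complex III, 19 to complex IV and 17 to complex V. Their genes lie on 19 chromosomes. The rule goes by symbol and uses no expression value. The symbols Cox4nb, Atp5s and Atp5sl fall under the rule by spelling but name no subunit, since Cox4nb encodes a protein of an endoplasmic reticulum complex and the other two encode assembly-related factors. The libraries were a ZIP10-positive and a ZIP10-negative population sorted from digested ventral skin of C57BL/6 mice aged 7 days, wild type and untreated in both. ZIP10, encoded by Slc39a10, is a zinc importer of the cell surface. The stain was a polyclonal antibody against it, or rabbit IgG, and each population gave 1 library of polyadenylated RNA. The titles place both populations in hair follicles, whereas the protocol digests whole skin, and neither the number of animals nor a sort on a cell type marker is given. With 1 library per group there was no replicate and no test, and every difference describes these libraries.

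The respiratory chain sits in the inner mitochondrial membrane. Complex I takes electrons from NADH and complex II from succinate, complex III passes them to cytochrome c and complex IV to oxygen, and the proton gradient built on the way drives complex V, the ATP synthase. Most subunits are encoded in the nucleus, made in the cytosol and imported, while a small set of core subunits is encoded by mitochondrial DNA. The transcription factors NRF1, GABPA and YY1 are known to bind many of the nuclear promoters. The nuclear transcripts are mostly short and abundant, so genes of like length and level are given beside them.

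Values are RPKM, reads scaled by transcript length and by library size. The RNA of Slc39a10, whose protein the stain targets, stood at 49.4 RPKM in ZIP10-positive cells against 11.1 RPKM in ZIP10-negative cells. This deposited ratio of 4.43 was close to the median ratio of 4.12 of the members above 0 in both libraries. RNA does not measure the surface protein used for the sort. Most genes were higher in the ZIP10-positive library: the median gene, taken over 9620 genes at 1 RPKM or more in both libraries, had a ratio of 1.97. Erythrocyte transcripts stood apart in the opposite direction. The RPKM of 8 erythrocyte markers summed to 16378 in ZIP10-positive and 283756 in ZIP10-negative cells, and these sums are parts of totals of 703748 RPKM for ZIP10-positive cells and 685692 RPKM for ZIP10-negative cells. Because such totals set the scale, each log2 ratio is of RPKM plus 1 in ZIP10-positive over ZIP10-negative cells, given either as deposited or against the median gene, the second meaning after the median gene's log2 ratio of 0.98 was divided between the libraries. When both libraries were scaled to their genes outside the top 50, the zero point moved by 1.29, and when globin genes and Rn45s, the ribosomal RNA precursor, were left out, by 1.39. Depth was estimated at 2.78e+06 reads for ZIP10-positive cells and 2.71e+06 reads for ZIP10-negative cells. Counting intervals of 95% for single ratios rest on that estimate and cover counting error only.

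Respiratory chain genes were higher in ZIP10-positive cells in nearly every case. Of the 81 members, 76 reached 1 RPKM in a library, and 74 of these were at least 2-fold higher as deposited and 0 at least 2-fold lower, against 44.1% of the 12249 genes compared that were 2-fold higher and 3.55% that were 2-fold lower. The exceptions were Ndufs5 and Atp5sl. Atp5sl had a deposited ratio of 2.24 and fell below 2-fold only because 1 RPKM was added to both values. The 75 members above 0 in both libraries had a median ratio of 4.12, with quartiles of 3.18 and 4.88 and a range of 0.887 to 10.5, and 51 of the ratios lay between 3 and 6. Relative to the median gene, 42 of 76 members stayed at least 2-fold higher and 1, Ndufs5, was at least 2-fold lower, against 14.7% higher and 11.4% lower among all genes compared. Among members above 0 in both libraries, which leaves out Cox6a2, 73 were 2-fold higher as deposited and 41 relative to the median gene. Of any size, 75 of 76 lay above the median gene, against 54.5% of all genes. Their median log2 ratio was 1.05 relative to the median gene, beside 0.09 over all genes compared.

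The size of the shift depended on the scale. Scaled to genes outside the top 50, 19 members were at least 2-fold higher, against 10.0% of all genes (1230 higher and 2060 lower), and the members' median was 0.75 beside -0.16 over all genes. Scaled without globin genes and Rn45s, 15 members were 2-fold higher, against 1101 higher and 2352 lower of all 12249 genes. The medians on that scale were 0.65 for the members and -0.24 for all genes. On the first of these scales 7 members fell below 0 (Ndufs5, Uqcr10, Uqcrc2, Ndufc2, Atp5sl, Cox4nb and Ndufv3), and on the second 14, with Ndufa6, Atp5h, Ndufa10, Ndufs1, Atp5j, Ndufs3 and Ndufs4 added. Above 0 on the first scale were 69 of 76 members, against 5224 of all 12249 genes. On the second they were 62 members, against 4746 of all genes. Ranks within a library do not change with scaling. The median member stood at percentile 98.5 of all listed genes in ZIP10-positive cells and at percentile 97.8 in ZIP10-negative cells. Of 76 members 68 ranked higher in ZIP10-positive cells, as did 6373 of all 12249 genes. The members' RPKM summed to 3.68% of the library total in ZIP10-positive cells and 0.921% in ZIP10-negative cells, and without globin genes and Rn45s to 3.93% in ZIP10-positive cells and 2.52% in ZIP10-negative cells.

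**Figure D1:**
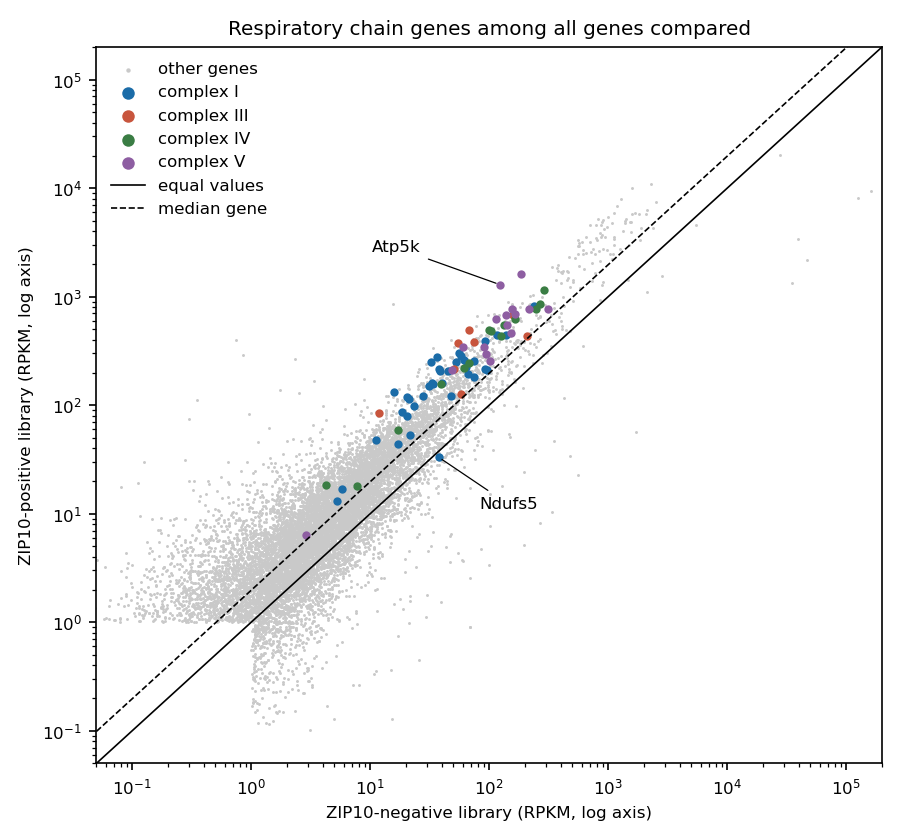
Each point is a gene with a value above 0 in both libraries, with its RPKM in ZIP10-positive cells on the vertical and in ZIP10-negative cells on the horizontal axis, both logarithmic; colours mark the respiratory complexes, the solid line equal values and the dashed line the median gene ratio of 1.97. Of 75 plotted members 74 lie above the dashed line, Atp5k farthest above it, and Ndufs5 lies below both lines.

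Markers of other cell types also differed between the libraries, and their part in the result was not tested. In bulk libraries fewer cells of a type and less RNA per cell cannot be told apart. Of 6 macrophage markers 5 were at least 2-fold higher relative to the median gene, with a summed level of 1131 RPKM in ZIP10-positive cells against 49.3 RPKM in ZIP10-negative cells, where Aif1 and Lyz2 were listed at 0. Of 5 mast cell markers 4 were higher, with sums of 299 RPKM in ZIP10-positive cells against 14.3 RPKM in ZIP10-negative cells. All 3 T cell markers were lower, summing to 77.8 RPKM in ZIP10-positive cells against 567 RPKM in ZIP10-negative cells. The 4 basal keratinocyte markers summed to 2286 RPKM in ZIP10-positive cells against 770 RPKM in ZIP10-negative cells, with a median log2 ratio of 0.31 relative to the median gene. The 4 follicle keratinocyte markers summed to 521 RPKM in ZIP10-positive cells against 257 RPKM in ZIP10-negative cells, the 4 fibroblast markers to 379 RPKM in ZIP10-positive cells against 402 RPKM in ZIP10-negative cells and the 4 melanocyte markers to 271 RPKM in ZIP10-positive cells against 184 RPKM in ZIP10-negative cells. Muscle and brown fat, which are rich in mitochondria, were looked for as well. Of 5 skeletal muscle markers, summing to 60.3 RPKM in ZIP10-positive cells against 26.1 RPKM in ZIP10-negative cells, the oxygen carrier Mb was at 0 in both libraries, and Acta1, the actin of skeletal muscle, had 53.9 RPKM in ZIP10-positive cells against 22.97 RPKM in ZIP10-negative cells. The 3 muscle markers that were compared had a median log2 ratio of 0.24 relative to the median gene, with 0 of them 2-fold higher. Of 5 fat markers, summing to 120 RPKM in ZIP10-positive cells against 27.5 RPKM in ZIP10-negative cells, Ucp1 and Adipoq were at 0 in both. Fabp4, a carrier of fatty acids that macrophages express as well, had 104 RPKM in ZIP10-positive cells against 20.2 RPKM in ZIP10-negative cells and was the 1 fat marker at least 2-fold higher relative to the median gene. Cidea, a lipid droplet protein, had 13.5 RPKM in ZIP10-positive cells against 5.75 RPKM in ZIP10-negative cells.

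The promoters of 4 members are shown here because they span the range of ratios and carry letters of the regulators named above. Each line gives the 250 bases before the annotated start from RefSeq (GRCm38.p6), read 5′ to 3′ along the gene's strand, which is the minus strand for all 4. Capitals mark the NRF1 motif, GCGCA, any base and GCGC, in Atp5k, Ndufb4 and Ndufs5, and the ETS motif CCGGAAG that GABPA can bind, read on the opposite strand, in Atp5e. Atp5k (chr5:108434400-108434649) had the highest ratio, Atp5e (chr2:174464102-174464351) the second highest, Ndufb4 (chr16:37654369-37654618) held 3 NRF1 motifs, and Ndufs5 (chr4:123718187-123718436) had the lowest ratio.
Atp5k: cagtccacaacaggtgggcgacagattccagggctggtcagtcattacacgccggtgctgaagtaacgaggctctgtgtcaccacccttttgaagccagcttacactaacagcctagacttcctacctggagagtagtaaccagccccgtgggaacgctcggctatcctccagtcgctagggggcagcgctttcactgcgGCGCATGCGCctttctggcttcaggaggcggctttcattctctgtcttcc
Atp5e: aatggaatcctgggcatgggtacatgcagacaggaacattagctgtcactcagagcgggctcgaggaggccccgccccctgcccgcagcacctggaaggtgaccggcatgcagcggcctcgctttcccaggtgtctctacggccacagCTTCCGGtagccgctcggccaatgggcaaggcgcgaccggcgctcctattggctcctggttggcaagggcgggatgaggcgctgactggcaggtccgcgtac
Ndufb4: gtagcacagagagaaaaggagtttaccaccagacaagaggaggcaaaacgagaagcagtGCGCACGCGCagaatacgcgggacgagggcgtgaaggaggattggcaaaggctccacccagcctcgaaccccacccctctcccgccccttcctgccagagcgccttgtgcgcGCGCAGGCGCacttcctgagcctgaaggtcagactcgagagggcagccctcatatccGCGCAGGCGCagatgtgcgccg
Ndufs5: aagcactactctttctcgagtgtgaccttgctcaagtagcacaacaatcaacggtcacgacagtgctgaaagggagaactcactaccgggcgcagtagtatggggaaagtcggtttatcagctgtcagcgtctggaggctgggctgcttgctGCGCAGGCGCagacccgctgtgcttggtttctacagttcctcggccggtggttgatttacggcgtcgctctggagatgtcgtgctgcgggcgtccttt
The NRF1 motif began 50 bases before the start in Atp5k and 98 bases before it in Ndufs5, so the members at both ends of the range of ratios carried it. In Ndufb4 it began 191, 79 and 22 bases before the start, and the ETS motif of Atp5e began 102 bases before it.

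Across the list, these letters were more frequent than in promoters at large. Windows of 250 bases before to 50 after the start were found for 66 members and searched on both strands. The NRF1 motif stood in 15 of 66 members (22.7%), in 11.02% of 8654 compared genes with a promoter and in 5.19% of all 27025. The YY1 motif AAGATGGCG stood in 8 members (12.1%), against 3.46% of compared genes and 1.64% of all. The ETS motif stood in 14 members (21.2%), against 19.5% of compared genes and 9.93% of all, close to the share in compared genes. The YY1 and ETS motifs can share the letters AAG. Overlapped in that way, they stood in 0 members and in 0 of all 27025 genes with a promoter. Among members that were compared, 32 with any of the motifs had a median log2 ratio of 1.15 relative to the median gene, with a range of -1.12 to 2.40, and 30 without one had a median of 0.96, with a range of 0.10 to 2.05. The ranges overlapped, and a match of letters is a description and not a binding site.

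Complex I genes were higher as a block apart from Ndufs5. Of 37 members 36 were at least 2-fold higher in ZIP10-positive cells as deposited, and relative to the median gene 21 were 2-fold higher and 1 was lower, with a median log2 ratio of 1.08. The 7 core subunits, which carry the flavin and the iron-sulfur clusters, had a median of 1.23 on this scale, and 4 of them stayed 2-fold higher. The 28 accessory subunits, which surround the core, had a median of 1.07, with 16 higher and 1 lower. All 37 were detected in both libraries.

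The core subunits were not uniform. Ndufv1, which binds the flavin that oxidises NADH, stood at 157 RPKM in ZIP10-positive cells against 33.6 RPKM in ZIP10-negative cells. Its partner Ndufv2, an iron-sulfur subunit, stood at 120 RPKM in ZIP10-positive cells against 20.3 RPKM in ZIP10-negative cells, the highest ratio of the core (5.89, interval 4.06 to 8.68). Both lay above the median gene on each scale. Ndufs7, an iron-sulfur subunit beside the ubiquinone site, had 114 RPKM in ZIP10-positive cells against 21.3 RPKM in ZIP10-negative cells. Ndufs8, a further iron-sulfur subunit, had 80.0 RPKM in ZIP10-positive cells against 20.4 RPKM in ZIP10-negative cells. Their ratios were 5.37 for Ndufs7 and 3.93 for Ndufs8. Ndufs3, a subunit of the same peripheral arm, had 122 RPKM in ZIP10-positive cells against 47.5 RPKM in ZIP10-negative cells, a ratio of 2.56 (interval 2.05 to 3.22). Ndufs1, the largest core subunit, had 12.96 RPKM in ZIP10-positive cells against 5.24 RPKM in ZIP10-negative cells. Its interval was 0.967 to 8.12 at the shorter annotated length of 651 bases and 1.66 to 3.78 at the RefSeq-paired length of 2661 bases. Both included the median gene ratio, so a difference from the median gene was not detectable at this depth.

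Accessory subunits held 3 of the 5 highest ratios. Ndufb3 of the membrane arm had 133 RPKM in ZIP10-positive cells against 15.7 RPKM in ZIP10-negative cells, a ratio of 8.43 (interval 5.53 to 13.5). Ndufb2, also of the membrane arm, had 248 RPKM in ZIP10-positive cells against 32.3 RPKM in ZIP10-negative cells, a ratio of 7.69 (5.02 to 12.8). Ndufs6, which binds a zinc ion at the NADH-oxidising end, had 277 RPKM in ZIP10-positive cells against 36.6 RPKM in ZIP10-negative cells, a ratio of 7.57 (5.30 to 10.9). The intervals of these 3 genes lay above the members' median ratio. The most abundant complex I genes differed less. Ndufa3 had 816 RPKM in ZIP10-positive cells against 240 RPKM in ZIP10-negative cells, Ndufb10 had 442 RPKM in ZIP10-positive cells against 138 RPKM in ZIP10-negative cells, and Ndufa7 had 446 RPKM in ZIP10-positive cells against 115 RPKM in ZIP10-negative cells. These 3 accessory subunits had ratios of 3.399, 3.19 and 3.87. Ndufb4, whose promoter held the most NRF1 motifs of those shown, had 300.3 RPKM in ZIP10-positive cells against 55.98 RPKM in ZIP10-negative cells, a ratio of 5.37 (4.40 to 6.596). Ndufc2, a membrane arm subunit, was near the median gene at 211 RPKM in ZIP10-positive cells against 94.9 RPKM in ZIP10-negative cells, a ratio of 2.22 (1.74 to 2.85).

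Ndufs5 was the single member with the lower value in ZIP10-positive cells. This accessory subunit on the intermembrane space side stood at 33.2 RPKM in ZIP10-positive cells against 37.5 RPKM in ZIP10-negative cells, a ratio of 0.887. Its interval of 0.522 to 1.4998 included 1 and lay below the median gene ratio of 1.97. Relative to the median gene its log2 ratio was -1.12. The reference lists a pseudogene named after Ndufs5, and how reads shared with such copies were counted is not given in the sources used here, so this value is uncertain. The same holds for 11 other members with a named pseudogene, among them Atp5k, Ndufs6 and Uqcrh.

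Ndufa4 carries a complex I name but is now counted with complex IV. It had 388 RPKM in ZIP10-positive cells against 92.1 RPKM in ZIP10-negative cells, a ratio of 4.21. Its isoform Ndufa4l2, known to be induced by low oxygen, was far less abundant, with 17.1 RPKM in ZIP10-positive cells against 5.83 RPKM in ZIP10-negative cells. Ndufa4l2 overlaps Shmt2 in the reference, and reads of the pair could be assigned to either. In all, 27 members overlap another annotated gene, and the counts without them are given with the processing alternatives.

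**Figure D2:**
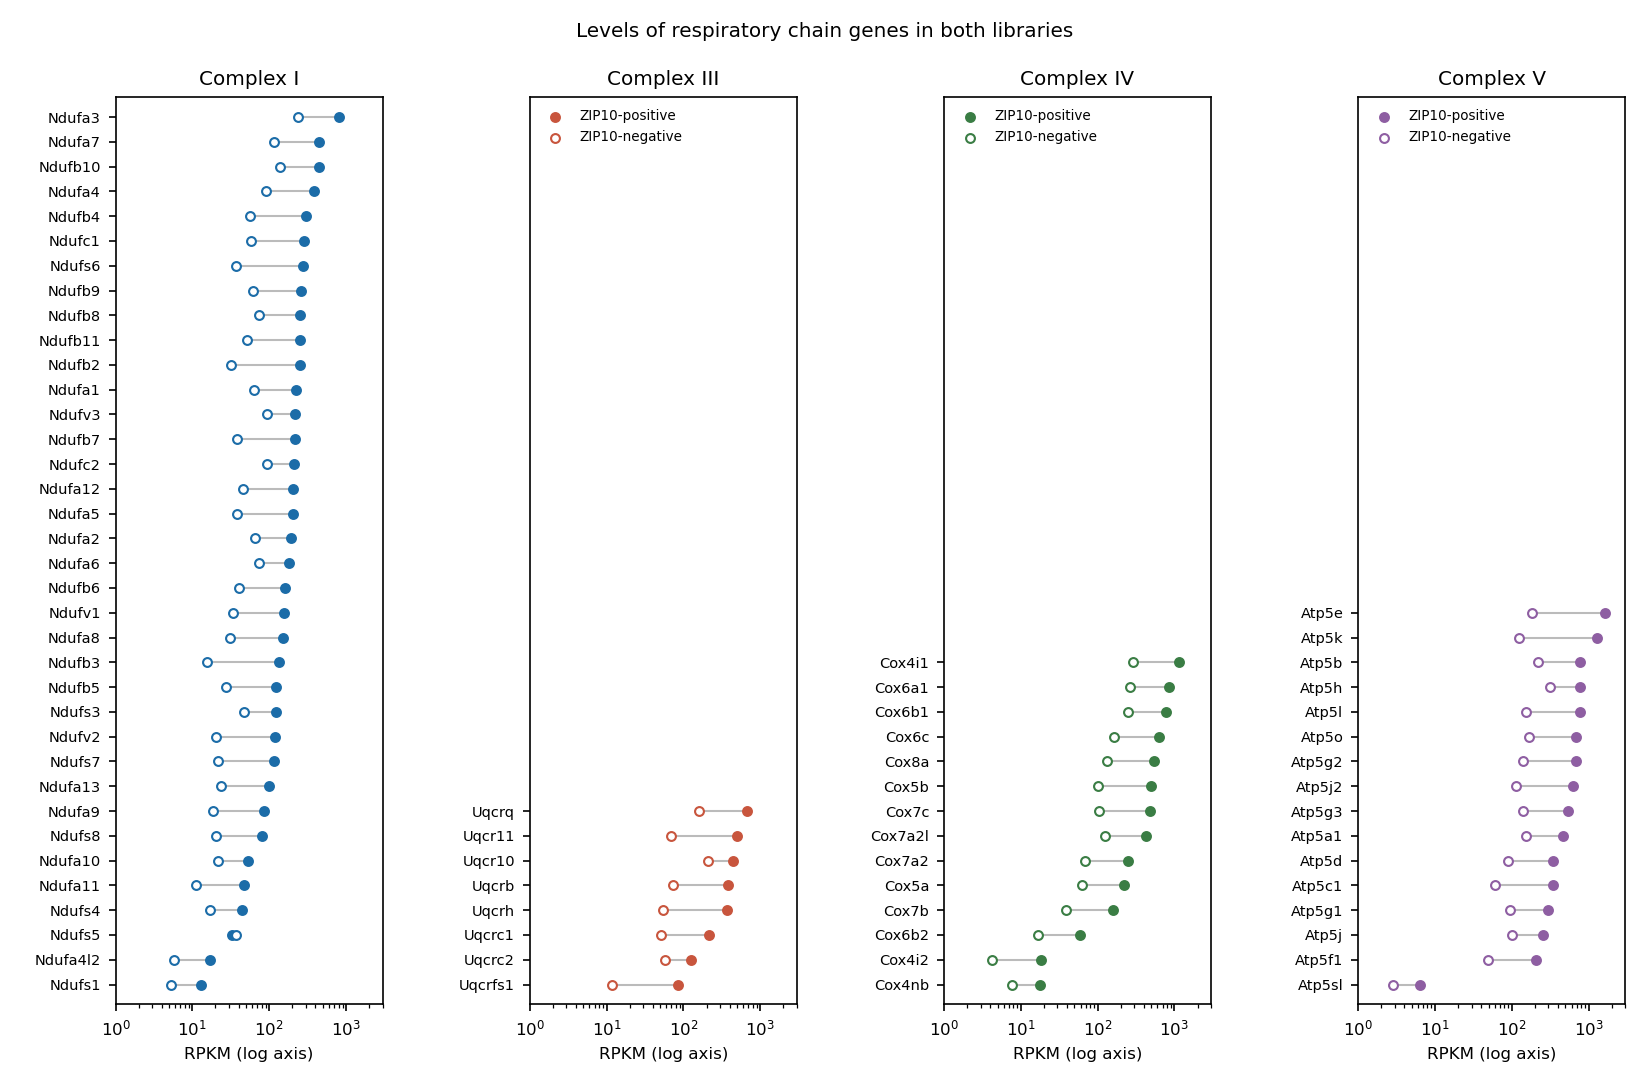
Rows are members above 0 in both libraries, with 1 such member left out, sorted within its complex by the ZIP10-positive value, with RPKM on a logarithmic axis; filled circles are ZIP10-positive and open circles ZIP10-negative cells. The filled circle lies to the right of the open one in every row drawn except that of Ndufs5, where it lies to the left, and the gap varies most within complexes I, III and V.

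Complex III had the highest median of the 4 complexes and a split within it. All 8 members were at least 2-fold higher in ZIP10-positive cells as deposited, and 6 stayed so relative to the median gene, with a median log2 ratio of 1.24. Uqcrfs1, the Rieske iron-sulfur protein that takes electrons from ubiquinol, had 85.5 RPKM in ZIP10-positive cells against 11.95 RPKM in ZIP10-negative cells, a ratio of 7.15 (interval 5.03 to 10.2). Of the core proteins that hold the complex on the matrix side, Uqcrc1 had 215 RPKM in ZIP10-positive cells against 51.0 RPKM in ZIP10-negative cells, a ratio of 4.21 (3.049 to 5.95). Uqcrc2, its partner, had 126 RPKM in ZIP10-positive cells against 57.7 RPKM in ZIP10-negative cells, a ratio of 2.18 (1.80 to 2.66). The intervals of Uqcrc1 and Uqcrc2 did not overlap. Both proteins sit side by side in the complex.

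The small subunits spread as widely. Uqcr11 had 496 RPKM in ZIP10-positive cells against 68.3 RPKM in ZIP10-negative cells, a ratio of 7.26 (5.36 to 10.2). Uqcrh, the hinge protein beside cytochrome c1, had 373 RPKM in ZIP10-positive cells against 54.9 RPKM in ZIP10-negative cells, a ratio of 6.79 (4.88 to 9.65). Uqcrq, the most abundant of the complex, had 677 RPKM in ZIP10-positive cells against 159 RPKM in ZIP10-negative cells. Uqcrb, which lies near the ubiquinone site, had 378 RPKM in ZIP10-positive cells against 73.9 RPKM in ZIP10-negative cells. These ratios were 4.27 and 5.12. Uqcr10 was at the other end, with 438 RPKM in ZIP10-positive cells against 207 RPKM in ZIP10-negative cells, a ratio of 2.11 whose interval of 1.71 to 2.62 included the median gene ratio. Uqcr10 and Uqcrc2 were the lowest members after Ndufs5, at 0.10 and 0.15 relative to the median gene, and both fell below 0 with either other scaling.

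Complex IV members differed least among themselves, from 0.20 to 1.32 relative to the median gene. All 15 that were compared were at least 2-fold higher in ZIP10-positive cells as deposited, and 7 stayed so relative to the median gene, with a median log2 ratio of 0.95. Both counts include Cox6a2, which was listed at 0 in ZIP10-negative cells and passed the filter through ZIP10-positive cells alone. Among complex IV members above 0 in both libraries the median was 0.91. The 10 ubiquitous nuclear subunits ranged from 0.65 to 1.32 relative to the median gene. Cox4i1, the most abundant of the complex, had 1155 RPKM in ZIP10-positive cells against 288 RPKM in ZIP10-negative cells, a ratio of 4.02 (interval 3.61 to 4.48). Cox6a1 had 859 RPKM in ZIP10-positive cells against 266 RPKM in ZIP10-negative cells, a ratio of 3.23, and Cox6b1, which faces the intermembrane space, had 771 RPKM in ZIP10-positive cells against 248 RPKM in ZIP10-negative cells, a ratio of 3.10. Cox5b, the zinc-binding subunit on the matrix side, had 493 RPKM in ZIP10-positive cells against 99.9 RPKM in ZIP10-negative cells, the highest ratio of these 10 subunits, 4.94 (4.04 to 6.09). Cox5a, its partner on that side, had 220 RPKM in ZIP10-positive cells against 61.9 RPKM in ZIP10-negative cells. The membrane subunit Cox6c had 626 RPKM in ZIP10-positive cells against 164 RPKM in ZIP10-negative cells, and Cox7c had 482 RPKM in ZIP10-positive cells against 104 RPKM in ZIP10-negative cells.

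Subunits with tissue isoforms were represented mainly by the ubiquitous form in both libraries. Cox4i2, the lung isoform of Cox4i1, had 18.5 RPKM in ZIP10-positive cells against 4.22 RPKM in ZIP10-negative cells. Cox6b2, the testis isoform of Cox6b1, had 59.0 RPKM in ZIP10-positive cells against 17.0 RPKM in ZIP10-negative cells. Their ratios of 4.39 (interval 1.78 to 13.002) and 3.48 (1.74 to 7.49) had wide intervals that included those of the ubiquitous partners. Cox6a2, the heart and skeletal muscle isoform, had 1.58 RPKM in ZIP10-positive cells while its ZIP10-negative value was 0. The muscle isoforms Cox7a1 and Cox8b and the testis isoforms Cox7b2 and Cox8c were listed at 0 in both libraries, as was Atp5s. In contrast, their ubiquitous counterparts were abundant. Cox7a2 had 246 RPKM in ZIP10-positive cells against 68.3 RPKM in ZIP10-negative cells, Cox7b had 158 RPKM in ZIP10-positive cells against 39.3 RPKM in ZIP10-negative cells, and Cox8a had 548 RPKM in ZIP10-positive cells against 133 RPKM in ZIP10-negative cells. Cox7a2l, a factor that joins complexes III and IV into supercomplexes, had 430 RPKM in ZIP10-positive cells against 126 RPKM in ZIP10-negative cells, a ratio of 3.41 (2.999 to 3.88). Cox4nb, which names no subunit, was the fifth lowest among members at 10 RPKM or more in a library, with 17.8 RPKM in ZIP10-positive cells against 7.78 RPKM in ZIP10-negative cells.

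ATP synthase genes held the 2 highest ratios. Of 16 complex V members compared, 15 were at least 2-fold higher in ZIP10-positive cells as deposited and 8 relative to the median gene, with a median log2 ratio of 1.02. Atp5k, subunit e of the membrane part, had 1291 RPKM in ZIP10-positive cells against 123 RPKM in ZIP10-negative cells, a ratio of 10.5 (interval 7.57 to 14.8). Several Atp5k pseudogenes are listed in the reference. Atp5e, the epsilon subunit of the central stalk, had 1634 RPKM in ZIP10-positive cells against 186 RPKM in ZIP10-negative cells, a ratio of 8.79 (7.21 to 10.8). Both transcripts are very short, at 321.5 and 421 bases in the annotation.

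Most subunits of the catalytic head had lower ratios than epsilon. Atp5b, the beta subunit that makes ATP, had 778 RPKM in ZIP10-positive cells against 217 RPKM in ZIP10-negative cells, a ratio of 3.58 (interval 3.34 to 3.84). Atp5a1, the alpha subunit, had 463 RPKM in ZIP10-positive cells against 152 RPKM in ZIP10-negative cells, a ratio of 3.048 (2.83 to 3.28). The intervals of this pair did not overlap but lay close together, and both lay below that of Atp5c1. Atp5c1, the gamma subunit that turns inside the head, had 343 RPKM in ZIP10-positive cells against 59.8 RPKM in ZIP10-negative cells, a ratio of 5.73 (4.74 to 6.94). Atp5d, the delta subunit of the central stalk, had 343 RPKM in ZIP10-positive cells against 89.6 RPKM in ZIP10-negative cells, a ratio of 3.83 (3.24 to 4.54). The 3 genes for the c subunit, which encode the same mature protein, were all expressed. Atp5g2 had 677 RPKM in ZIP10-positive cells against 140 RPKM in ZIP10-negative cells, Atp5g3 had 543 RPKM in ZIP10-positive cells against 141 RPKM in ZIP10-negative cells, and Atp5g1 had 299 RPKM in ZIP10-positive cells against 94.2 RPKM in ZIP10-negative cells. Atp5g2 was the most abundant of the 3 in ZIP10-positive cells and level with Atp5g3 in ZIP10-negative cells.

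Among the stalk and membrane subunits, 5 of 7 were 2-fold higher relative to the median gene. Atp5h, subunit d of the peripheral stalk, had 775 RPKM in ZIP10-positive cells against 313 RPKM in ZIP10-negative cells, a ratio of 2.48 (2.19 to 2.80), the lowest of the 7. Atp5j, coupling factor 6, had 253 RPKM in ZIP10-positive cells against 101 RPKM in ZIP10-negative cells and overlaps Gabpa in the reference. Atp5o, which joins the stalk to the head, had 691 RPKM in ZIP10-positive cells against 166 RPKM in ZIP10-negative cells. These stalk genes had ratios of 2.48 to 4.16. Atp5f1, the stalk subunit b, had 209 RPKM in ZIP10-positive cells against 48.8 RPKM in ZIP10-negative cells. The membrane subunits Atp5j2 and Atp5l were higher still: Atp5j2 had 618 RPKM in ZIP10-positive cells against 113 RPKM in ZIP10-negative cells, and Atp5l had 765 RPKM in ZIP10-positive cells against 155 RPKM in ZIP10-negative cells.

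Members differed from one another in their ratios, some beyond counting error. Counting intervals of 43 members included the members' median ratio of 4.12, 12 lay above it and 20 below it. Above it were Ndufb2, Ndufb3, Ndufb4, Ndufs6, Uqcr11, Uqcrfs1, Uqcrh, Atp5c1, Atp5e, Atp5g2, Atp5j2 and Atp5k. Below it were Ndufa2, Ndufa3, Ndufa6, Ndufa10, Ndufb10, Ndufc2, Ndufs3, Ndufs4, Ndufs5, Ndufv3, Uqcr10, Uqcrc2, Cox6a1, Cox6b1, Cox7a2l, Atp5a1, Atp5b, Atp5g1, Atp5h and Atp5j. Subunits of the same complex thus stood in both groups for complexes I, III and V, and those of complex IV in the second alone at the lengths used here. At the estimated depth, and at the shorter of their annotated lengths, the 75 members above 0 in both libraries rested on 13.4 to 3708 reads in ZIP10-positive cells, with a median of 314, and on 5.71 to 1011 reads in ZIP10-negative cells, with a median of 82.7. Both lowest values are those of Cox4nb at 470 bases. The smallest whole-number pair that matches its ratio is 47 and 20 reads, so for whole reads these estimates are too low. Its RefSeq-paired length of 4942 bases gave 235 reads in ZIP10-positive and 100 reads in ZIP10-negative cells. For whole reads the estimates were also too low for other members, among them Ndufa11, Uqcr10 and Ndufs5. Ndufs5 had an estimated 30.1 reads in ZIP10-positive and 33.1 in ZIP10-negative cells, against 339 and 373 as the smallest pair. That pair would give Ndufs5 an interval of 0.763 to 1.03. The intervals of 61 members lay above the median gene ratio and that of 1, Ndufs5, below it. At the RefSeq-paired length, an alternative chosen after seeing the data, 62 lay above the median gene ratio and 1 below it, and 38 included the members' median ratio, with Cox5b and Ndufv2 now above it. Such intervals narrow as reads increase, and they were not computed for other genes, so these counts have no background beside them. The levels of members were similar but not equal in order between the libraries, with Atp5e the most abundant in ZIP10-positive cells and Atp5h in ZIP10-negative cells. Across the 75 genes Pearson's r between the log2 levels of the libraries was 0.93, a description of genes that share libraries. Across the same genes r between the log2 ratio and transcript length was -0.04, and r between the log2 ratio and the mean RPKM was 0.29.

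Relative to the median gene, transcripts of like length were also higher in ZIP10-positive cells, by less. Short genes were taken as those with a median protein-coding transcript of 1000 bases or less. Among 2226 other short genes the median log2 ratio relative to the median gene was 0.39, and 547 were at least 2-fold higher and 202 lower. The 60 short members had a median of 1.06, with 34 higher and 1 lower. At a mean of 100 RPKM or more, the median was 1.08 for 45 short members and 0.69 for 267 other short genes, or 0.54 once ribosomal protein genes were left out of these. The difference between members and other short genes was therefore 0.67 at any level and 0.39 among abundant genes. It shrank to 0.22 when length was the longest annotated transcript and to 0.30 when it was that of transcripts paired with RefSeq. The 16 longer members had a median of 0.94, against 0.02 for 9382 other long genes. Scaled to genes outside the top 50, the medians were 0.76 for the 60 short members and 0.12 for other short genes. Scaled without globin genes and Rn45s, they were 0.66 for short members and 0.03 for other short genes.

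Within length classes the members stood above other genes where the class held 3 members or more. Up to 600 bases, 29 members had a median of 1.06, and other genes had 0.85 at a mean of 100 RPKM or more and 0.49 at any level. Above 800 and up to 1000 bases, 11 members had 1.28, and other genes 0.74 and 0.40. Above 1000 and up to 1500 bases, 11 members had 1.08, and other genes 0.62 and 0.34. Above 1500 and up to 2000 bases, 2 members had 0.50, near the 0.47 of abundant other genes. Other genes had a median of -0.12 between 3000 and 5000 bases and of -0.36 above 5000 bases, where no member lies. By level, short members had 1.13, 1.09 and 1.04 at a mean of 30 to 100, 100 to 300 and 300 to 1000 RPKM, against 0.53, 0.59 and 0.67 for other short genes.

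**Figure D3:**
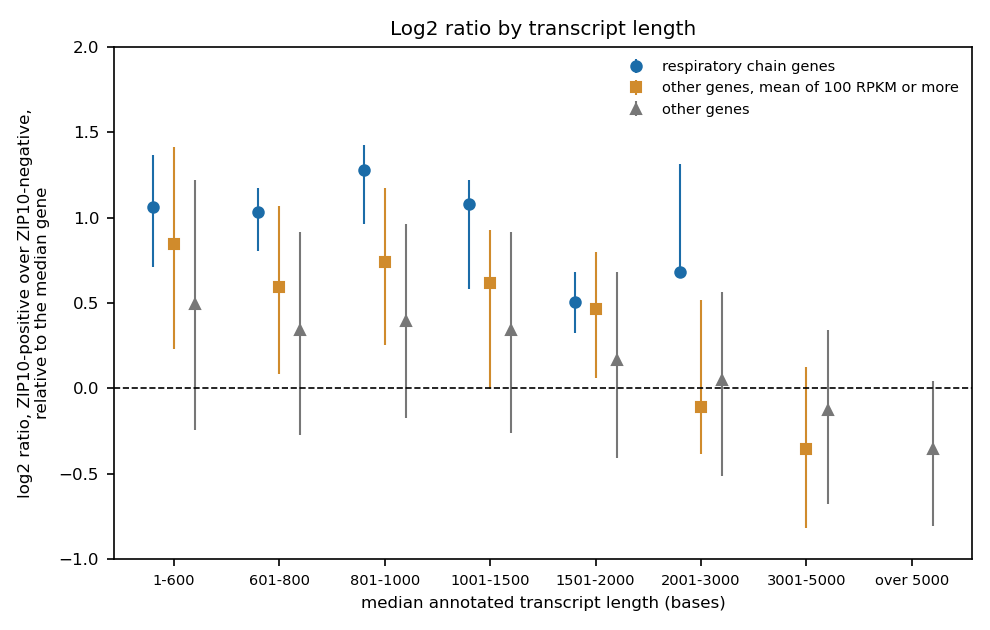
The horizontal axis gives classes of median annotated transcript length in bases and the vertical axis the log2 ratio of ZIP10-positive over ZIP10-negative cells relative to the median gene; symbols are medians and bars run from the lower to the upper quartile, for respiratory chain genes, other genes at a mean of 100 RPKM or more and all other genes, in classes with at least 2 genes. Members stand highest in each class that holds them, and other genes go from 0.49 in the shortest class to -0.36 in the longest.

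Families outside the respiratory chain gave a scale for these values, with median transcript lengths of 727.5 to 1204.5 bases and median levels of 44.9 to 2456 RPKM in ZIP10-positive cells. The 93 cytosolic ribosomal protein genes had a median log2 ratio of 0.998 against the median gene; 46 were 2-fold or more above it and 0 below, so that they stood at the level of the respiratory complexes. The 76 mitochondrial ribosomal protein genes, which serve translation inside the organelle, had a median of 0.64, with 21 higher. The 20 Timm and Tomm genes of mitochondrial protein import had 0.85, the 12 Lsm genes 0.80, the 18 core subunits of the proteasome 0.70 and the 12 Snrp splicing genes 0.70. All 10 groups, the 4 complexes included, lay above the median gene. The difference between the members and these families was not tested.

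**Figure D4:**
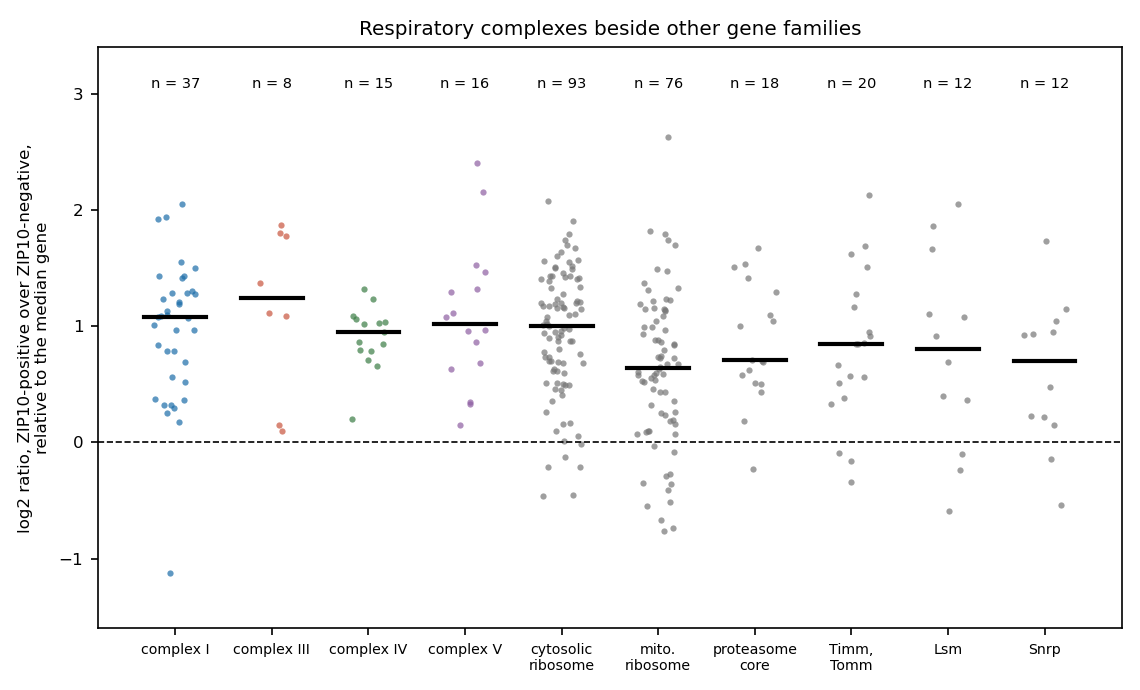
Each point is a gene, spread sideways for legibility, with its log2 ratio of ZIP10-positive over ZIP10-negative cells relative to the median gene on the vertical axis; thick bars are medians and n is the number of genes compared. The complexes have medians of 0.95 to 1.24, the cytosolic ribosome 0.998 and the other families 0.64 to 0.85.

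Of the respiratory genes outside the naming rule, 7 of 8 also lay above the median gene. The list had a median of 0.86 on that scale, and 2 were at least 2-fold higher and 0 lower. Cyc1, the cytochrome c1 of complex III, had 149 RPKM in ZIP10-positive cells against 25.3 RPKM in ZIP10-negative cells, and Atpif1, the inhibitor of ATP synthase, had 442 RPKM in ZIP10-positive cells against 93.4 RPKM in ZIP10-negative cells. Of the complex II genes, Sdhb, Sdhc and Sdhd had log2 ratios of 0.89, 0.94 and 0.81 relative to the median gene. Sdha, the flavoprotein of complex II, was at -0.03, with 59.4 RPKM in ZIP10-positive cells against 30.8 RPKM in ZIP10-negative cells. Subunits encoded by mitochondrial DNA were not analysed here, since no symbols starting with mt-Nd, mt-Co, mt-Cy or mt-At were found among the listed genes. Among 6 carriers and porins the median was 0.82, with 1 higher: the ADP/ATP carrier Slc25a5 had 812 RPKM in ZIP10-positive cells against 182 RPKM in ZIP10-negative cells, while the porin Vdac1 had 169 RPKM in ZIP10-positive cells against 128 RPKM in ZIP10-negative cells.

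Assembly factors and regulators were less abundant than most members and did not move as one group. The median levels of these lists were 3.51 to 17.4 RPKM in ZIP10-positive cells and 2.26 to 5.79 RPKM in ZIP10-negative cells. No counting intervals were computed for these genes, so whether their differences exceed counting error at such levels was not tested. Of 9 complex I assembly genes in the table, 6 were at least 2-fold higher relative to the median gene (median 1.14), and Ndufaf3 had 24.97 RPKM in ZIP10-positive cells while the ZIP10-negative value was 0. Nubpl and Tmem126b had 0.372 and 0.560 RPKM in ZIP10-negative cells. Ndufaf3, Nubpl and Tmem126b thus passed the 1 RPKM filter through ZIP10-positive cells alone, which favours high ratios, so this count and median partly reflect the filter. The 4 complex III assembly genes had a median of -0.84, with 0 higher and 2 lower, Lyrm7 and Ttc19, which serve the insertion and upkeep of the Rieske protein. Lyrm7 had 1.45 RPKM in ZIP10-positive cells against 2.98 RPKM in ZIP10-negative cells, and Ttc19 had 2.81 RPKM in ZIP10-positive cells against 3.78 RPKM in ZIP10-negative cells. Of 12 complex IV assembly genes 1 was higher, with a median of 0.40. It was Cox19, a factor of copper delivery, with 31.6 RPKM in ZIP10-positive cells against 3.97 RPKM in ZIP10-negative cells. Of 3 complex V assembly genes 1 was higher, Atpaf1, a chaperone of the beta subunit, with 8.61 RPKM in ZIP10-positive cells against 0.866 RPKM in ZIP10-negative cells. Atpaf1 also passed the filter through ZIP10-positive cells alone. Of 11 regulators compared, 1 was higher and 1 lower, with a median of 0.30 that became -0.05 on the scale without globin genes and Rn45s. Esrra, an orphan nuclear receptor, had 10.2 RPKM in ZIP10-positive cells against 2.17 RPKM in ZIP10-negative cells, and Polrmt, the mitochondrial RNA polymerase, had 2.02 RPKM in ZIP10-positive cells against 4.45 RPKM in ZIP10-negative cells. The 3 factors whose motifs were searched were also less abundant than most members: Nrf1 had 7.97 RPKM in ZIP10-positive cells against 3.16 RPKM in ZIP10-negative cells, Gabpa had 9.16 RPKM in ZIP10-positive cells against 7.01 RPKM in ZIP10-negative cells, and Yy1 had 11.3 RPKM in ZIP10-positive cells against 7.12 RPKM in ZIP10-negative cells.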

How the data were processed

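Polyadenylated RNA of 2 libraries, 1 per group, was sequenced with single reads of 50 bases from 10 ng of total RNA, per the labels' protocols. The authors deposited RPKM values, 1 per gene symbol and library. Tools named in the submitters' processing notes are cutadapt, TopHat and Cufflinks, with mm9 as genome build. Versions, settings, annotation and strand use: not given in the sources used here.

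Ratios were taken as log2((positive + 1)/(negative + 1)), which understates the change of low genes, over 12249 genes that reached 1 RPKM in a library. No test or p-value was computed. Transcript lengths came from GENCODE vM21 and promoters, chromosomes and overlaps from RefSeq GRCm38.p6, both of another build than the values. All 81 members matched. Of 1389 low genes, 58.4% stood in ratios of whole numbers up to 12, times 0.975, at a tolerance of 0.001%, against 0% after rescaling. Depth was estimated from 828 genes, 25.5% of them within 1.4% of the commonest value, with an offset of 199 bases. Exact Clopper-Pearson intervals used the shorter of 2 annotated lengths. They cover counting error only.

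The shift to the median gene, the 2-fold calls and the whole-number factor were tested on simulated data. The depth estimate, counting intervals, other scalings, length comparison and motif search were not. Members, lists and naming rules were chosen with earlier results of these data known. Named are core subunits, the 3 most abundant members of each complex, the 5 highest and 5 lowest ratios at 10 RPKM or more, members listed at 0 and isoform pairs; any other member could be named, and 1 member is not reported here by name. Software was numpy 2.4.6, scipy 1.17.1, pandas 2.3.3 and matplotlib 3.10.9 on Python 3.11.15.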

Additional observations from a re-analysis of the deposited data

How the results depend on the processing

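Both pseudocounts (0.1 and 5), both filters (none and 10 RPKM), genes above 0 in both libraries only, and the list without Cox4nb, Atp5s and Atp5sl kept every count within 1.5 times and every median within the typical half-width of a counting interval, 0.36 in log2. The members at least 2-fold higher numbered 19 when scaled to genes outside the top 50 and 15 on the scale without globin genes and Rn45s. Of all 12249 genes compared, 1230 and 1101 were 2-fold higher on these scales, in that order. On that last scale the medians were 0.65 for all members, 0.67 for complex I, 0.83 for complex III, 0.54 for complex IV and 0.60 for complex V. With the filters, the difference to other short genes ranged from 0.52 with the 10 RPKM filter to 1.03 with no filter. The upper value reflects unexpressed genes: 1378 of 3806 other short genes were 0 in both libraries. With no filter they enter at a log2 ratio of 0 and lower the median of other short genes. The difference was 0.22 with the longest annotated transcript and 0.30, chosen after seeing the data, with transcripts paired with RefSeq. Also chosen after seeing the data, leaving out 27 members that overlap another gene left 48 members 2-fold higher as deposited, by construction, since fewer members enter. The log2 ratio of Cox6a2, listed at 0 in ZIP10-negative cells, was 3.61 and 0.29 at the low and high pseudocount. None of the member medians changed sign. No paired analysis was possible because each group has 1 library. No setting stands in for a replicate. Cox6a2 rests on an estimated 2.11 reads in ZIP10-positive and 0 in ZIP10-negative cells. Estimates for Ndufs1 and Cox4nb depend on the length taken: Ndufs1 has 16.3 reads in ZIP10-positive and 6.41 in ZIP10-negative cells at the shorter length, and 88.6 in ZIP10-positive and 34.9 in ZIP10-negative cells at the RefSeq-paired length.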
